A study of Mus musculus with 8 samples.

Results

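The complement system is a cascade of plasma and membrane proteins, of which 9 genes were examined in satellite cells (SCs), which serve as the stem cells of muscle. They were chosen by symbol, as C3, C4b, C1ra, C1s1, Cfd, Serping1, Cd55, Cd59a and Clu, out of 52636 genes in the deposited table. All 9 were found, each in 1 row. Of these, 6 had reads in at least 1 library and 3 (C4b, Cfd and Cd59a) were listed at 0 in every library. A mean of at least 1 FPKM (fragments per kilobase of gene, with 1 scale for each library) was needed for the test across genes. C3, C1s1, Serping1 and Clu passed that filter.

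Control mice were sedentary and exercise mice ran on a treadmill for 4 weeks, on 4 days of each week, for 30 min a day at a speed of 12 m per min. Both groups were male C57B/6J animals, aged 10 weeks when the experiment began. From the tibialis anterior muscle of each, a sort kept cells with CD34 and integrin alpha 7 on their surface and without CD45, CD11b, CD31 and Sca1, and about 800 of these cells made up each RNA library. There were 4 control and 4 exercise libraries.

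Complement works through recognition proteins, proteases that cut the next protein in the chain, and inhibitors that stop the chain on the body's own cells. In the classical pathway the proteases C1r and C1s, bound to C1q, cut C4 and C2, and the enzyme so formed cuts C3, the component on which all pathways converge. The liver makes most plasma complement, while fibroblasts and other stromal cells make several components locally, and cells protect themselves with membrane inhibitors such as CD55 and CD59.

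The libraries were shallow, and some resembled each other closely. Control libraries held 2339966 to 3013354 reads on genes and exercise libraries 1011737 to 1200221. Genes with reads numbered 5169 to 7306 in control and 2348 to 3289 in exercise. The scale of the deposited FPKM did not follow the reads on genes. All FPKM of a library summed to 2488142 in exercise 4 and to 331669 to 637095 in the other libraries. A count of 3 reads of C3 was 2.02 FPKM in exercise 4 and 0.349 FPKM in exercise 1, so FPKM values of exercise 4 are high for their reads. In exercise 3, 50.2% of reads came from the mitochondrial genome, in exercise 4 this was 68.7%, and elsewhere it was at most 15.3%. Exercise 1 and 2 were close to each other, and their counts gave a chi-square divided by its degrees of freedom of 3.86, where the 11 other pairs within a group had 82.6 to 711. Control 4 had the values of a weighted sum of control 1 and control 3. The median weight was 0.281 over genes that control 1 had and control 3 lacked and 0.714 over genes that control 3 had and control 1 lacked, and both sum to 0.996. Exercise 3 stood in a like relation to exercise 1 (0.299) and exercise 4 (0.677).

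The members with more reads were close to these sums. In control 4, the ratio of the observed share of reads to the weighted sum was 0.989 for C3, 1.06 for C1s1, 0.953 for Serping1 and 0.873 for Clu. In exercise 3 the ratios of observed to weighted values were 0.946 for C3, 1.05 for C1s1 and 0.955 for Serping1, but 2.11 for Clu, from 5 reads. C1ra and Cd55, with at most 11 reads in a library, were not close, with ratios of 1.79 and 3.97 in control 4. Whether these libraries share cells or reads was not tested. With exercise 1 and 2 averaged and control 4 and exercise 3 left out, limma called 0 of all 4328 genes and thus none of the 4 tested members, so this fit says nothing particular about complement. The log2 fold changes of that fit were -3.59 for C3 (limma adjusted p = 0.458), -3.15 for C1s1 (limma adjusted p = 0.497), -0.96 for Serping1 (limma adjusted p = 0.62) and -2.13 for Clu (limma adjusted p = 0.483). At an unadjusted p under 0.05, C3 alone of the members passed, as did 451 of all genes. The values that follow use all 8 libraries unless a sentence says otherwise.

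C3 was lower in exercise and was the 1 member that passed the test. C3 is the central component, which is split into an anaphylatoxin and a fragment that binds covalently to targets. The gene (ENSMUSG00000024164) lies on chromosome 17 of GRCm38, from 57203970 to 57228136. Control 1 to 4 had 288, 74.2, 37.6 and 79.0 FPKM, from 3394, 1168, 754 and 1619 reads. Exercise 1 to 4 had 11.9, 14.0, 6.31 and 3.37 FPKM, from 102, 115, 36 and 5 reads. Every exercise library lay below every control library, and control 1 was well above the other controls. The means were 120 ± 114 FPKM (SD, n = 4) in control and 8.89 ± 4.90 FPKM in exercise, a 13.5-fold difference.

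The log2 fold change of C3 was -3.35 on the log2(FPKM + 1) scale (standard error 0.82, 95% interval -5.18 to -1.52), with a limma adjusted p of 0.0162 over all 4328 genes tested. The exact two-sided permutation p of its FPKM was 0.0286, the smallest that 4 libraries against 4 allow. Such genes were common in these libraries. Of all genes tested, 26.8% were called lower in exercise at an adjusted p under 0.05, in 24.0% the exercise values lay wholly below the control values, and in 31.6% the groups did not overlap in either direction. The split of the calls changed with the processing. As deposited, 1161 genes were called lower and 380 higher. With 1 factor for each library, lower calls stayed in excess, with 1448 lower and 261 higher after scaling to the same sum of FPKM, 1387 and 302 to all recovered reads, and 1255 and 403 to reads outside the mitochondrial genome. With voom on recovered reads, which changes the weights too, the counts were 791 lower and 451 higher, and with quantile normalization they were 375 lower and 566 higher. Across all genes tested the fold changes had a median of -1.42 (log2), so C3 stood at -1.94 relative to it, and 13.2% of genes had a lower fold change than C3. That median depends on the filter, and was -0.32 with no filter and -0.80 with at least 1 FPKM in 4 libraries. In sorted cells pooled into a library, fewer cells that make a transcript and less of it per cell cannot be told apart.

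**Figure D1:**
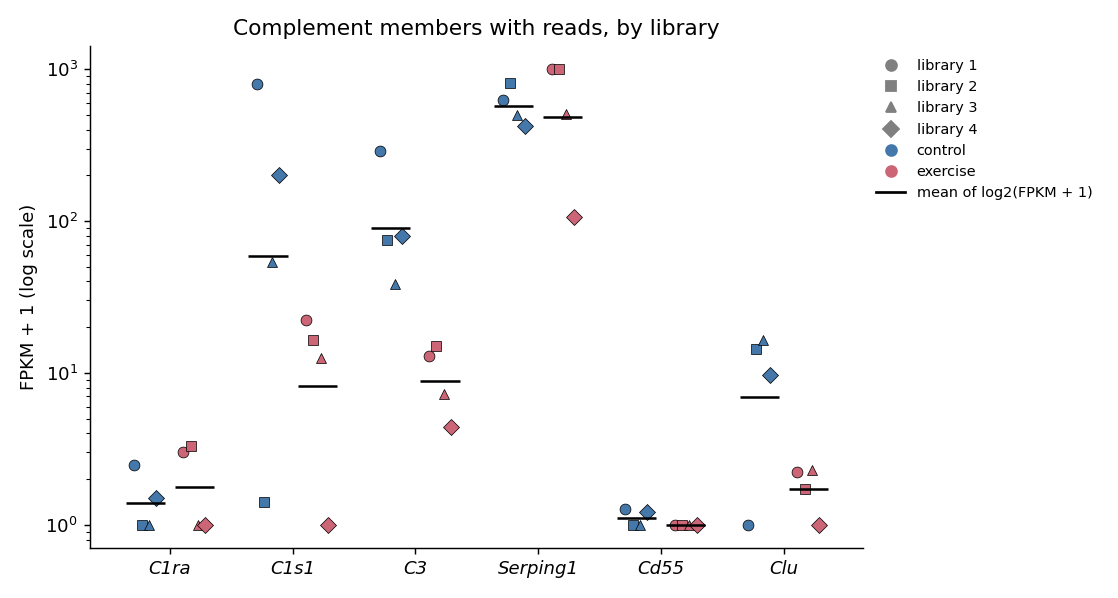
FPKM + 1 on a log scale for the 6 members with reads, in each of the 4 control (blue) and 4 exercise (red) libraries; symbols mark the library number and bars the mean of log2(FPKM + 1). All 4 exercise libraries lie below all 4 control libraries for C3, while the groups overlap for the other 5 genes.

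Leaving out libraries changed the call of C3 but not its direction. Without control 4 its adjusted p from limma was 0.0516 and without exercise 3 it was 0.058, while the other 6 fits that left out 1 library gave 0.00882 to 0.0416. In the fits without control 4 and without exercise 3 the log2 fold change of C3 was -3.41 and -3.26, and 13.2% and 12.3% of all genes were called. Without control 1, the highest library, the mean of control was 63.6 ± 22.7 FPKM (SD, n = 3), 7.15-fold above exercise, and the log2 fold change was -2.79. Averaging exercise 1 and 2, the near copies, gave -3.57 (limma adjusted p = 0.0391). With quantile normalization, which forces all libraries to the same distribution and under which 21.7% of all genes were called, it was -2.45 (limma adjusted p = 0.0581).

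**Figure D2:**
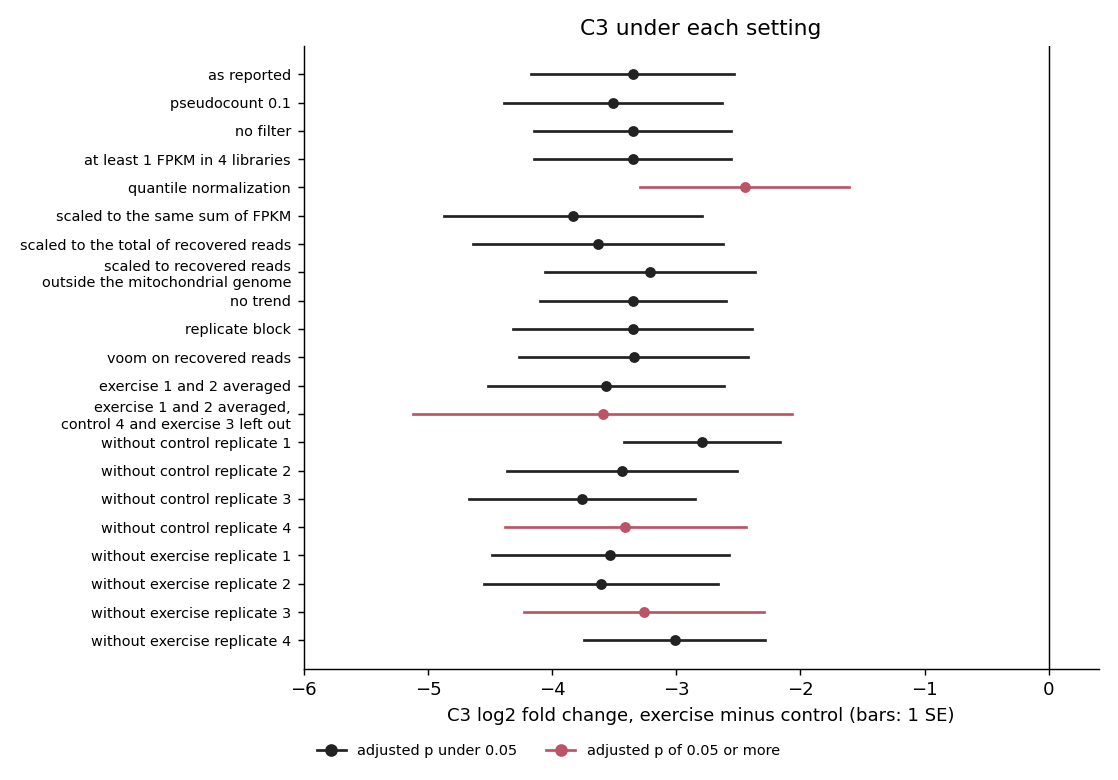
The log2 fold change of C3 (exercise minus control, bars show 1 standard error) as reported and under each of the 20 other settings. All estimates lie between -3.83 and -2.45, and red marks the 4 settings in which the limma adjusted p was 0.05 or more.

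C1s1 and C1ra encode the serine proteases C1s and C1r, which act as partners in the C1 complex. They are neighbours on chromosome 6 of GRCm38, C1ra (ENSMUSG00000055172) on the plus strand from 124512405 to 124523443 and C1s1 (ENSMUSG00000038521) on the minus strand from 124530345 to 124542359, with 6901 bases between them. C1s1 was uneven among the controls, with 794, 0.417, 52.6 and 199 FPKM in control 1 to 4, from 5696, 4, 642 and 2486 reads. Exercise 1 to 4 had 21.4, 15.4, 11.5 and 0 FPKM, from 112, 77, 40 and 0 reads. Of the controls, 3 lay above every exercise library, while control 2 lay below 3 of the 4 exercise libraries.

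The mean of C1s1 was 261 ± 365 FPKM in control and 12.1 ± 9.03 in exercise. The log2 difference came to -2.84 with a 95% interval from -6.93 to 1.25 (standard error 1.83, limma adjusted p = 0.214), and the exact two-sided permutation p was 0.114. The SD of the controls exceeded the difference between the means. Without control 2 the change was -4.63 with a limma adjusted p of 0.0398, and it was -1.59 without control 1. Of 8 fits that left out 1 library, the fit without control 2 was the 1 with a limma adjusted p under 0.05, and it called 23.9% of all genes. Control 4, at 199 FPKM, lay between control 1 and control 3. A count of 0 in exercise 4 allows up to 3 reads, or 3.33 FPKM of C1s1, by counting error only. An antisense gene, Gm16567, overlaps C1s1 and was listed at 0.

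C1ra was close to the limit of detection. It had 10, 0, 0 and 6 reads in control 1 to 4 and 10, 11, 0 and 0 in exercise 1 to 4, or at most 2.31 FPKM. The means were 0.492 ± 0.689 FPKM in control and 1.08 ± 1.25 FPKM in exercise, the groups overlapped, and the exact two-sided permutation p was 0.429. Its reads came from the same libraries in which C1s1 was above 15 FPKM, apart from control 3. Per kilobase, C1s1 exceeded its partner 543-fold in control 1, 395-fold in control 4, 10.7-fold in exercise 1 and 6.67-fold in exercise 2. These folds rest on 6 to 11 reads of C1ra in a library, and the other libraries had none. Control 4 was close to a weighted sum that includes control 1, and exercise 1 and 2 were near copies. No difference between the groups is read from these folds. The close copies C1rb and C1s2 were listed at 0 in all libraries, and reads that fit both copies of a pair could have been assigned to either.

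The sequence before the start of a gene is shown for C3 and C1s1, the pair of cascade genes with the most reads in control. The RefSeq table used here (GRCm38.p6) was matched for 6 of the 9 members, and C4b, Serping1 and Clu were not matched. The 250 bases before each RefSeq start are written 5′ to 3′ on the minus strand, and capitals mark matches to TTGCNNAA, the core of the sites bound by C/EBP factors of the acute phase response.
C3, chr17:57228137-57228386: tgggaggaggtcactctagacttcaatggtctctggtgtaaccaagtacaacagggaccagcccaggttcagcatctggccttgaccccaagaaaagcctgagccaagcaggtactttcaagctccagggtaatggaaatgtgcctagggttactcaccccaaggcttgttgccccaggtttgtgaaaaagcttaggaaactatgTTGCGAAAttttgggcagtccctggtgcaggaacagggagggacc
C1s1, chr6:124542360-124542609: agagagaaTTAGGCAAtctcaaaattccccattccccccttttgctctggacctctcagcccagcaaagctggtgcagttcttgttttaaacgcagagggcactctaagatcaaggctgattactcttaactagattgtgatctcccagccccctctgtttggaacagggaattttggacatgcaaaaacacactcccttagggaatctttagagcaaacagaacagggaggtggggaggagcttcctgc

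Both windows held 1 match to TTGCNNAA, searched on both strands. In C3 it lay at -45 to -38 from the start, on the strand of the gene, and in C1s1 at -242 to -235, on the opposite strand. Of 32536 distinct windows of this length, 9.57% held the motif. TATAAA, present in 12.3% of windows, and TTCNNNGAA, the core of STAT sites, present in 7.04%, had no match in either. These are matches of letters and were not tested for binding.

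Serping1 was the most abundant member and did not pass the test. It encodes C1 inhibitor, the serpin that inactivates C1r and C1s, and lies on chromosome 2 (84765387 to 84775444). Control 1 to 4 had 620, 815, 497 and 421 FPKM and exercise 1 to 4 had 1004, 1001, 508 and 104 FPKM. Exercise 1 and 2 were the highest of all and exercise 4, with 70 reads, the lowest, so the exercise libraries enclosed the controls. The means were 588 ± 172 FPKM in control and 654 ± 434 FPKM in exercise. On the log2 scale the change was -0.24 (95% interval -1.97 to 1.48, standard error 0.77, limma adjusted p = 0.805), and the exact two-sided permutation p was 0.771. The mean of FPKM was thus higher in exercise and the mean of log2(FPKM + 1) lower. Without exercise 4 the log2 fold change was 0.49 (limma adjusted p = 0.32).

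The level of the inhibitor was set beside that of C3 and of C1s1, its own target, in each library. The ratio to C3 was chosen after the values were seen and restates the difference in C3, so it is given as a description with no test. Serping1 was above C3 in 8 of 8 libraries and above C1s1 in 7, with control 1 the exception, and C1s1 was above C3 in 6. Serping1 made up 36.4%, 90.3%, 82.5% and 59.4% of the summed FPKM of the 9 members in control 1 to 4, and 96.4% to 96.9% in the exercise libraries. A ratio of 2 genes in a library does not change when the whole library is multiplied by 1 factor. The ratio of Serping1 to C3 was 2.16, 11.0, 13.2 and 5.33 in control 1 to 4 and 84.6, 71.4, 80.4 and 31.0 in exercise 1 to 4. Its mean was 7.93 ± 5.08 in control against 66.9 ± 24.6 with exercise, and the groups did not overlap.

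Of the 4327 other genes tested, 21.7% had a ratio to Serping1 that lay wholly lower in exercise. The log2 ratio of Serping1 to C3 was 3.28 higher in exercise, and 2.76 to 3.63 higher in 10 fits with fewer libraries. The ratio of Serping1 to C1s1 was 0.782, 1951, 9.46 and 2.11 in control 1 to 4 and 46.9, 64.9 and 44.0 in exercise 1 to 3, and exercise 4 had no read of C1s1. Control 2 lay far above the exercise libraries and the other controls below them. The ratio of C1s1 to C3 overlapped between the groups.

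**Figure D3:**
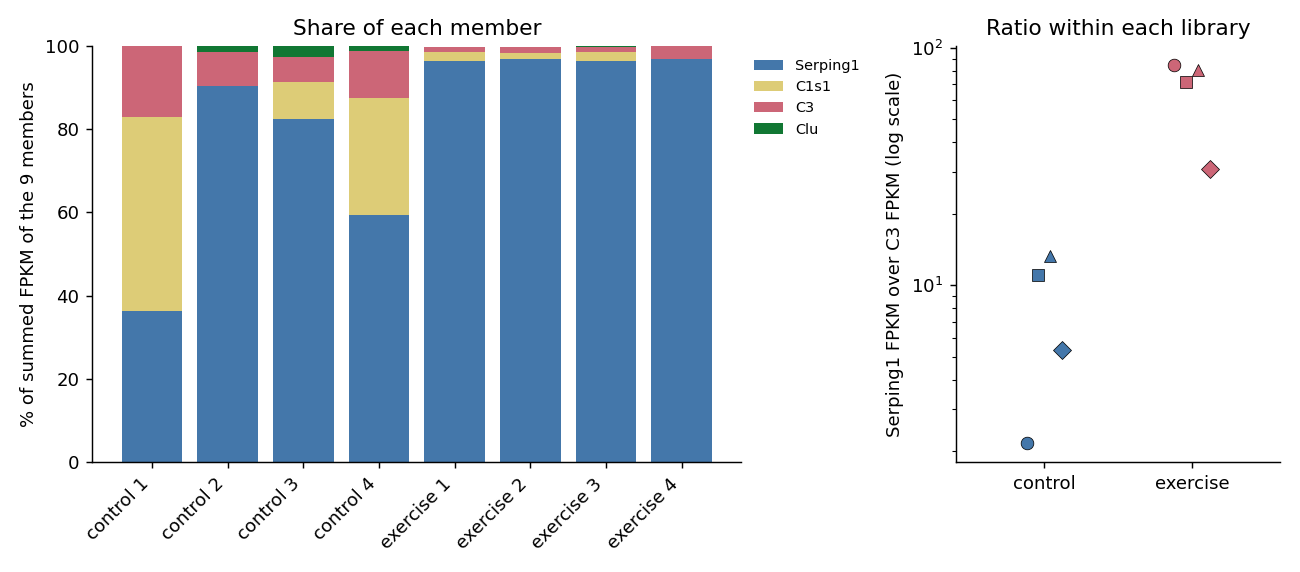
Left, the share (%) of Serping1, C1s1, C3 and Clu in the summed FPKM of the 9 members in each library; right, the ratio of Serping1 to C3 FPKM on a log scale in each library. Serping1 takes 96.4% to 96.9% in exercise, and the ratio is at most 13.2 in control and at least 31.0 in exercise.

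Clu was low in exercise and in control 1. It encodes clusterin, a secreted chaperone that binds the terminal complement complex, and lies on chromosome 14 (65968483 to 65981547). Control 1 to 4 had 0, 13.3, 15.4 and 8.69 FPKM, from 0, 140, 206 and 119 reads. Exercise 1 to 4 had 1.22, 0.729, 1.31 and 0 FPKM, from 7, 4, 5 and 0 reads. Control 2, 3 and 4 lay above every exercise library, whereas control 1 had no read. The means were 9.34 ± 6.82 FPKM in control and 0.815 ± 0.600 FPKM in exercise. The change was -1.999 on the log2 scale (95% interval -4.09 to 0.09, standard error 0.93, limma adjusted p = 0.113), and the exact two-sided permutation p was 0.143. Without control 1 it was -2.93, with a limma adjusted p of 0.00144, in a fit that called 43.7% of all genes. This was the 1 fit with a limma adjusted p under 0.05 among 8 that left out 1 library. Without control 3 the change was -1.58 (limma adjusted p = 0.223).

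Control 1 thus held the most C3 and C1s1 of all libraries and no read of Clu. A count of 0 there allows up to 0.381 FPKM of Clu, under every other control. Control 2 showed the reverse for C1s1, with 0.417 FPKM against 13.3 FPKM of Clu. Across the 8 libraries, the correlation (Pearson) of log2(FPKM + 1) was 0.668 between C3 and C1s1, 0.325 between C3 and Clu and -0.0233 between C1s1 and Clu. These are descriptions, since the genes of a library share its depth and scaling.

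The remaining 2 inhibitors among the 9 members were near or under the limit of detection. Cd55, which encodes decay accelerating factor, a membrane protein that breaks up the convertases, had 3 reads in control 1, 4 in control 4 and none elsewhere. Cd59a, which encodes a membrane inhibitor of the terminal complex, was listed at 0 throughout, as were the copies Cd55b and Cd59b. A count of 0 allows at most 0.416 to 5.75 FPKM of Cd59a across the libraries.

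C4b, the component cut by C1s, and Cfd, the protease adipsin that starts the alternative pathway, were also listed at 0 in all 8 libraries, as was C4a, the close copy of C4b. The limit that a count of 0 sets was 0.132 to 1.83 FPKM for C4b and 0.817 to 11.3 FPKM for Cfd. Zeros in these libraries were common in genes that most cells use. Of 20 such genes, 1 to 3 were at 0 in each control library and 6 to 9 in each exercise library, and Gapdh, a glycolytic enzyme, was listed at 0 in exercise 3 and 4. A value of 0 is therefore given only as listed.

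In the wider pathway, a list of 55 complement genes written from general knowledge, 11 had reads in any library and 7 were tested. The 44 others were listed at 0 and include C1qa, C1qb, C1qc, C2, Cfb and C4a. Of 15 genes of recognition and initiation, C1ra and C1s1 alone had reads, and of 7 central components C3 alone. Of the 7 tested genes 1 was called lower (C3) and 1 was called higher (Vtn), where 35.6% of all genes tested were called, 26.8% lower and 8.78% higher. C1s1, Serping1, Clu, C8g and Cr1l had negative log2 fold changes and were not called. The median log2 fold change of the 7 was -2.30 and that of the 4 members was -2.42, beside -1.42 over all genes tested. Clu, Cr1l and C8g passed the filter through control alone, with exercise means of 0.815, 0.580 and 0 FPKM. Vtn passed through exercise alone, with a control mean of 0.591 FPKM. The filter thus favours the direction of such genes, so these medians are descriptions and say nothing of complement as a set.

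Vtn encodes vitronectin, a matrix protein that blocks the terminal complex. It had 2.36, 0, 0 and 0 FPKM in control 1 to 4 and 533, 584, 305 and 34.2 FPKM in exercise 1 to 4. The groups did not overlap, as in 7.62% of genes with exercise above control. Its change was 7.47 on the log2 scale, with a standard error of 1.01 and a limma adjusted p of 0.00123, and it was 6.55 with a limma adjusted p of 0.216 with exercise 1 and 2 averaged and control 4 and exercise 3 left out. C8g, a subunit of the terminal complex, had 335 and 69.1 FPKM in control 1 and control 4 and was listed at 0 in the other libraries (log2 fold change -3.63, limma adjusted p = 0.124). Without control 1 the change of C8g was -2.04 (limma adjusted p = 0.283), and without control 2 it was -4.84 (limma adjusted p = 0.0704). Its reads came from control 1 and from control 4, whose values were close to a weighted sum that includes control 1. Cr1l, the rodent membrane inhibitor Crry, had 0.126, 21.4, 12.2 and 7.64 FPKM in control 1 to 4 and 0 to 1.45 FPKM in exercise. Its log2 fold change was -2.30 (limma adjusted p = 0.0745), and -3.20 without control 1 (limma adjusted p = 0.00165). That was the 1 fit of 8 without 1 library that gave a limma adjusted p under 0.05, and it called 43.7% of all genes. Without control 2 the change of Cr1l was -1.76 (limma adjusted p = 0.141).

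**Figure D4:**
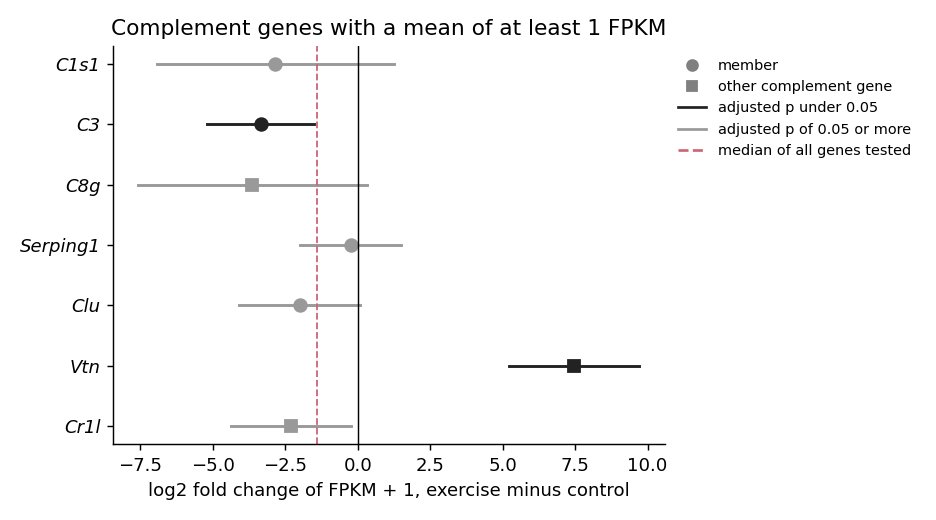
Log2 fold change of FPKM + 1 (exercise minus control) with 95% intervals from limma for the 7 complement genes that were tested; circles are members, squares are other complement genes, and black marks an adjusted p under 0.05. C3 at -3.35 and Vtn at 7.47 passed, and the dashed line is the median of all genes tested, -1.42.

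Markers of other cells were read beside these genes, since stromal cells also make C3, C1s and C1 inhibitor. Of 12 markers of fibro-adipogenic cells, the stromal progenitors of muscle, 11 to 12 had reads in control libraries and 10 to 12 in exercise, although the sort removed cells with Sca1, which these cells carry. Their summed level was 3544 to 5844 FPKM in control and 4045 to 10061 FPKM in exercise. Much of it was Gsn, with 1173 to 1540 FPKM in control and 1484 to 7201 FPKM in exercise. The direction of the 12 markers was mixed, with 3 of 12 (Pdgfra, Col1a2 and Mfap5) wholly lower in exercise, 1 (Lum) wholly higher and the rest overlapping. These shares were near the 24.0% and 7.62% of all genes tested. Pdgfra, the defining receptor, had 9.44 to 35.0 FPKM in control and 2.42 to 7.99 FPKM in exercise, while Lum, a matrix proteoglycan, had 90.8 to 123 and 311 to 532 FPKM. Ly6a, which encodes Sca1, had 0 to 8.94 FPKM in control and 0 to 7.44 FPKM in exercise.

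Of 10 endothelial markers 4 had reads, and Pecam1 and Cdh5, which define these cells, were listed at 0. Their summed level was 0.0925 to 2994 FPKM in control and 4.42 to 26.2 FPKM in exercise. Most of the control sum was Kdr, a receptor of endothelial growth factor, with 0, 2994, 1669 and 1076 FPKM in control 1 to 4 and at most 0.530 FPKM in exercise. Tek, the angiopoietin receptor, went the other way, with at most 0.0925 FPKM in control and 4.42 to 25.8 FPKM in exercise, and was the 1 endothelial marker of 10 whose groups did not overlap. Like Clu, Kdr had no read in control 1 and was high in the 3 other controls. All 6 tenocyte markers had reads, summing to 487 to 1019 FPKM in control and 243 to 1405 FPKM in exercise, and Scx, a transcription factor of tendon, was at most 0.442 FPKM in control and 3.05 to 102 FPKM in exercise. Scx was the 1 tenocyte marker of 6 whose groups did not overlap. Of 8 smooth muscle and pericyte markers 3 had reads, summing to 2.88 to 46.1 FPKM in control and 5.72 to 89.3 FPKM in exercise, and 1 of the 8 (Myh11) was wholly higher in exercise.

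All 12 leukocyte markers and all 6 adipocyte markers were listed at 0. The 10 myofibre markers summed to 32912 to 67620 FPKM in control and 19592 to 59682 FPKM in exercise, and 2 of the 10 (Mb and Myh1) were wholly lower in exercise. Of 12 SC markers 8 had reads, summing to 47.1 to 86.9 FPKM in control and 74.6 to 124 FPKM in exercise, and Pax7 and Itga7, which define these cells, were listed at 0. Most of this sum was Des and Sdc4 in every library. Des had 17.0 to 48.9 FPKM in control and 11.4 to 92.4 FPKM in exercise, and Sdc4 had 3.25 to 33.8 and 30.0 to 76.1 FPKM. Between 4 and 7 of the 12 SC markers had reads in a control library and 3 to 4 in an exercise library, and Myf5, Myod1 and Vcam1 were listed at 0 in every exercise library. Cd34, used in the sort, was the 1 SC marker whose groups did not overlap, with 0.12 to 1.48 FPKM in control and 1.90 to 9.63 FPKM in exercise. The part of these other cells in the values of C3 and the other members was not tested.

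The genes whose log2(FPKM + 1) followed each member most closely over the 8 libraries were taken from 1770 genes whose mean reached 10 FPKM. For C3 these were Gnai2 (r = 0.985), Snrpc (r = 0.983) and Cd81 (r = 0.978), and for C1s1 they were Sap18b (r = 0.967), Psmb4 (r = 0.949) and Gnb2 (r = 0.938). For Serping1 they were the matrix genes Fmod (r = 0.989) and Nid1 (r = 0.986) and the integrin Itgb5 (r = 0.984). For Clu they were Glud1 (r = 0.989), Dbnl (r = 0.988) and Rcor1 (r = 0.986), all of which had under 2 FPKM in control 1. These values come from a search among many genes over 8 libraries, some of them alike, and are given as a description.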

How the data were processed

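RNA sequencing of sorted SCs from 4 control and 4 exercise samples was analysed. The authors deposited FPKM values per gene. Their processing notes name mm10, Bowtie 0.12.9, Cufflinks 2.1.1 and HTSeq. Multiplied by gene length, the deposited FPKM values of a library fell on multiples of a single step (tolerance 0.001), so the reads behind each value could be recovered. Of 9 members, 9 had the same coordinates in GENCODE M21 (GRCm38). Values of rows with the same symbol were added up.

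Genes whose mean reached 1 FPKM were tested on log2(FPKM + 1), so fold changes of low genes are understated, with limma 3.58.1 in R 4.3.3 (eBayes with a trend) and Benjamini-Hochberg adjustment over 4328 genes. The fit was tested on simulated data. Single genes were compared by exact permutation tests over 70 assignments (scipy 1.17.1). The members and lists were chosen with earlier results of these data known. Named were the members, their copies, complement genes with an adjusted p under 0.05 or a mean of at least 1 FPKM, and the 3 genes most like each tested member. A count of 0 was taken to allow 3 reads; such limits cover counting error alone, because reads after amplification do not each stand for a molecule. The labels do not tie libraries to animals. The paper's legends give n as mice for these data. Since some libraries resembled each other closely, p-values measure the spread between these libraries, which may be technical. Alternatives were another pseudocount (0.1), other filters, scalings, a replicate block, voom and fewer libraries; 2 scalings to recovered reads were added after seeing the data.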

Additional observations from a re-analysis of the deposited data

Results flagged for a closer look

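Among 16 groups of 4 libraries examined for the members with reads and the tested complement genes, 2 held 1 library that stood apart. Chance alone gives this in about 1 of 20 groups of normally distributed values, a rate that need not hold for FPKM. C3 had 288 FPKM in control 1 against 37.6 to 79.0 FPKM in the other controls. Vtn had 2.36 FPKM in control 1, from 11 reads, and 0 in the other controls, where any single value above 0 would stand apart.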

How the results depend on the processing

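For 13 results, 250 values were recomputed under 20 other settings. As reported, 1 member and 2 genes of the complement list were called by limma. With quantile normalization 0 members and 1 list gene were called, beside 21.7% of all genes (566 higher and 375 lower), although C3 had an unadjusted p of 0.0141. With exercise 1 and 2 averaged and control 4 and exercise 3 left out, limma called 0 of all 4328 genes, and so 0 members and 0 list genes, while 1 member and 2 list genes had an unadjusted p under 0.05, as did 451 of all genes. Leaving out the libraries in turn, the counts ranged from 0 (without control 4 and without exercise 3, where C3 had unadjusted p of 0.00698 and 0.00838) to 2 members (without control 1, and without control 2) and from 1 to 4 list genes, with 4 without control 1. The share of all genes called moved as well, at 13.2% without control 4, 12.3% without exercise 3, 43.7% without control 1 and 23.9% without control 2. The cause was not tested.

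Serping1 changed sign, to 0.13 with quantile normalization, 0.011 with voom on recovered reads and 0.49 without exercise 4. Leaving out the libraries in turn, it ranged from -0.60 to 0.49 and had a limma adjusted p of at least 0.32 in every fit that left out 1 library. C3, C1s1, Clu, C1ra, C8g, Cr1l and Vtn kept their direction under all 20 settings. The share of all tested genes called was 0% with exercise 1 and 2 averaged and control 4 and exercise 3 left out, 9.3% with no filter over 9029 genes and 13.9% with exercise 1 and 2 averaged. The median of all genes moved from -1.42 to -0.44 with quantile normalization and to -2.59 with a pseudocount of 0.1, where C3 was at -2.45 and -3.51. With no filter the median was -0.32, and with at least 1 FPKM in 4 libraries it was -0.80, while C3 stayed at -3.35.

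The replicate numbers share only a number, since deviations of same-numbered libraries correlated by -0.0169 to 0.0393 over 4328 genes, although 6 of 8 libraries correlated best with their own number. With the replicate block 1 member and 2 list genes were called, and 24.5% of all genes. Depth limits the low genes. Exercise 4 held 5 reads of C3 and 70 of Serping1.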
